A study of Mus musculus with 18 samples.

Results

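Messenger RNA of cultured microglia that lacked a Tbk1 allele was set directly against that of microglia with a changed Tak1 allele. The comparison used 6 of the 18 libraries of the series, 3 labelled Tbk1+/- (here Tbk1het) and 3 labelled Tak1ΔM/+ (Tak1het), chosen by genotype label and column name and read across all expressed genes. The 3 wild-type (WT) libraries are given as a level on which to read both groups. All of these cells came from forebrains of C57BL/6 pups at postnatal day 2 and were grown for 7 days and for 7 more after a medium change before microglia were shaken off. The labels give no Ripk1 change in these 3 genotypes, do not say which promoter or Cre made the ΔM allele, and leave unsaid if replicates are separate pups or cultures, so a p-value here measures the spread between libraries, which may be technical.

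TBK1 is a kinase that passes signals from sensors of foreign nucleic acid to the transcription factor IRF3 and so to type I interferon. TAK1, encoded by Map3k7, is a kinase that activates the IKK complex and the stress kinases below the receptors for tumour necrosis factor (TNF), interleukin 1 and microbial products. Both kinases also restrain RIPK1, a kinase that can switch TNF signalling in microglia and other cells to cell death and inflammation, and the title of the series asks about that restraint by TBK1.

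The 6 libraries held 15449809 to 21604322 counts each and 15548 to 17433 genes with counts. They carried RNA of genes used to define microglia: 17 of 18 such genes could be tested, and none was called. Of the 17, 6 had an unadjusted p under 0.05 and 6 had groups without overlap, against 17.7% and 17.9% of all genes. Their summed level was 16051, 17415 and 17081 CPM (counts scaled to a common library total) in Tbk1het, against 16754, 17493 and 17365 CPM in Tak1het. Ctss was the most abundant, with means of 3252 CPM in Tbk1het and 3337 CPM in Tak1het. Sall1, Tmem119 and P2ry12 were low, with means of 1.08, 3.29 and 14.4 CPM in Tbk1het and 1.10, 3.84 and 13.4 CPM in Tak1het. Csf1r, the receptor that microglia need to survive, had 2259.5, 2101 and 2550.2 CPM in Tbk1het and 1911, 2407 and 2242 CPM in Tak1het. Sex and the share of mitochondrial RNA differed between the groups too.

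The sum of 4 Y-linked genes (Ddx3y, Eif2s3y, Kdm5d and Uty), as CPM of the unscaled library total, was 59.8, 187 and 123 in Tbk1het, against 3.02, 0 and 0 in Tak1het and 107, 50.2 and 0 in WT. No count in Tak1het replicates 2 and 3 allows a level of up to 0.165 and 0.190 CPM. Xist, the RNA of the silenced X chromosome, had 153, 0 and 29.5 CPM in Tbk1het and 175, 139 and 149 CPM in Tak1het. Tbk1het libraries thus held male RNA, in replicates 1 and 3 together with Xist, and Tak1het libraries held almost none, so sex and genotype cannot be told apart by the groups alone. The share of counts from mitochondrially encoded protein genes was 2.01% ± 0.191 in Tbk1het and 1.12% ± 0.583 in Tak1het (SD, n = 3 each), with the lowest value in Tak1het replicate 1 (0.453%, 95% Wilson interval 0.450% to 0.456%).

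Tbk1 RNA itself was lower in each Tbk1het library than in any Tak1het library. Tbk1 (ENSMUSG00000020115, GRCm38 chromosome 10, 121546455 to 121586787) had 50.5, 65.6 and 57.1 CPM in Tbk1het, against 133, 106 and 88.0 CPM in Tak1het and 106, 104 and 149 CPM in WT. Its log2 fold change was -0.91 (SE 0.25), which did not pass the test across all genes (adjusted p = 0.0683, edgeR), whereas DESeq2 (adjusted p = 0.0130) called it. The fold change was -0.42 with Y-linked RNA and -0.29 with the mitochondrial share as a term in the fit. Map3k7 (ENSMUSG00000028284, chromosome 4, 31964097 to 32023467) had 13.2, 12.0 and 14.8 CPM in Tbk1het, against 9.98, 8.96 and 7.34 CPM in Tak1het and 11.0, 10.4 and 19.2 CPM in WT. These groups did not overlap either, and the log2 fold change of 0.60 (SE 0.32) was not called (adjusted p = 0.348). The labels do not say what the M of ΔM stands for, so how far a count over the whole gene should fall is not known. Ripk1 (ENSMUSG00000021408, chromosome 13, 34002363 to 34037147) had 21.5, 13.6 and 19.0 CPM in Tbk1het and 36.6, 46.9 and 14.5 CPM in Tak1het, and the groups overlapped (log2 fold change -0.86, SE 0.43, adjusted p = 0.315).

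Over all 13447 genes tested, 178 were called at an adjusted p under 0.05 (1.32%), 93 higher in Tbk1het (0.692%) and 85 lower (0.632%). Of these, 53 rose by at least 1 on the log2 scale and 45 fell by at least 1. The shares of 0.692% and 0.632% are the background for every count of called list members below. The median log2 fold change over all tested genes was -0.00, and 49.6% were above 0, which the scaling of the libraries largely sets. The libraries of the groups did not overlap for 172 of the 178 called genes, against 17.9% of all tested genes. The WT mean lay between both group means for 80 of the 93 higher genes, for 82 of the 85 lower genes and for 5666 of all genes tested, and a wide gap between groups leaves more room for a value between them.

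**Figure D1:**
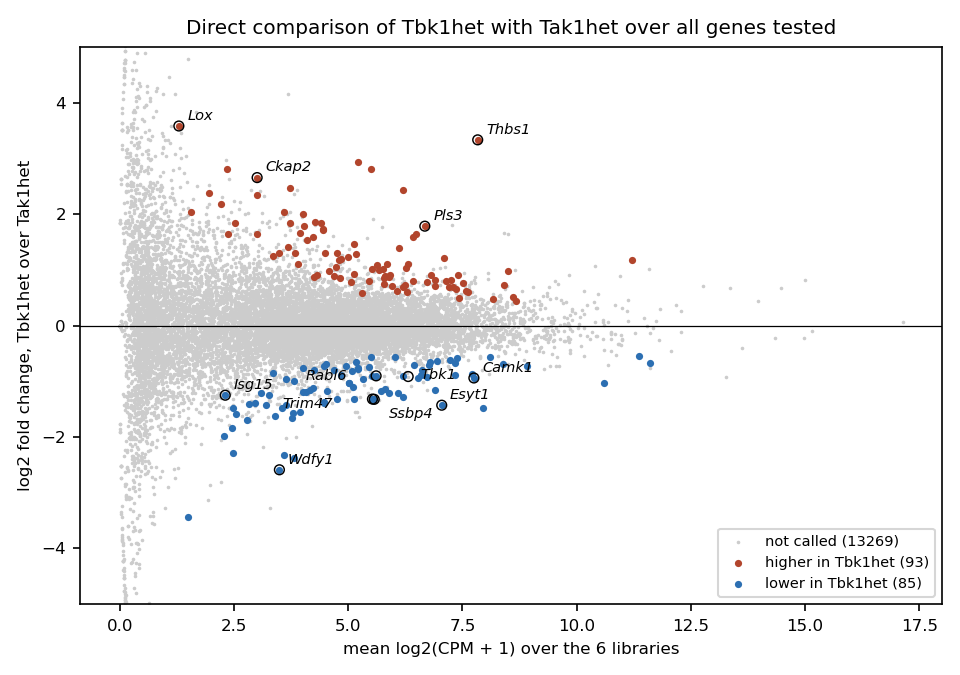
Each point is 1 of the 13447 tested genes, with its mean log2(CPM + 1) over the 6 libraries on the x axis and its log2 fold change, Tbk1het over Tak1het, on the y axis, and 161 genes lie beyond the y limits of 5. The 93 genes called higher (red) and 85 called lower (blue) lie on both sides of 0, with Thbs1 at 3.33, Wdfy1 at -2.59 and Tbk1, which was not called, at -0.91.

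How firm a call was depended on the library. Only 7 of the 178 genes were called with each of the 6 libraries left out in turn, 171 lost the call in at least 1 of these fits, and 8 lost it in all 6. Leaving out Tbk1het replicate 1, 2 or 3 gave 42, 780 or 18 calls, and leaving out Tak1het replicate 1, 2 or 3 gave 11, 18 or 197. Tbk1het replicate 2 was the lowest of its group for 63 of the 93 higher genes, and leaving it out gave the largest of these 6 counts. Tak1het replicate 3 was the lowest of its group for 59 of the 85 lower genes. No called gene changed direction under any of these fits or under the other settings.

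The 7 genes called in each of those fits were Esyt1, Camk1, Rabl6, Trim47 and Ssbp4, which fell, and Pls3 and Ckap2, which rose; Camk1, Rabl6, Trim47 and Ssbp4 were named after their values were seen. Esyt1 (ENSMUSG00000025366, chromosome 10, 128509965 to 128525871), which encodes a protein that tethers the endoplasmic reticulum to the plasma membrane, had 85.8, 77.9 and 77.5 CPM in Tbk1het, against 251, 224 and 176 CPM in Tak1het and 189, 149 and 136 CPM in WT. The Tbk1het libraries lay close together and far below the others, with means of 80.4 ± 4.70 CPM in Tbk1het and 217 ± 37.9 CPM in Tak1het (SD, n = 3 each), a log2 fold change of -1.43 (SE 0.17, adjusted p = 0.00169). Camk1 (ENSMUSG00000030272, chromosome 6, 113334124 to 113343984), a kinase activated by calcium and calmodulin, had 184, 149 and 134 CPM in Tbk1het and 289, 311 and 296 CPM in Tak1het. Its fold change was -0.94 on the log2 scale (SE 0.12, adjusted p = 0.00169), and WT, with 277, 251 and 273 CPM, lay near Tak1het.

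Rabl6, a Rab-like GTPase, had 37.0, 37.1 and 31.3 CPM in Tbk1het and 67.5, 71.4 and 58.2 CPM in Tak1het. Trim47, a member of the TRIM family of ubiquitin ligases, had 38.1, 27.9 and 24.2 CPM in Tbk1het and 91.4, 84.8 and 50.0 CPM in Tak1het. Ssbp4, a member of the single-stranded DNA-binding protein family, had 30.3, 32.5 and 24.01 CPM in Tbk1het and 84.7, 76.7 and 55.3 CPM in Tak1het. The log2 fold changes were -0.90 (SE 0.13) for Rabl6, -1.32 (SE 0.20) for Trim47 and -1.32 (SE 0.20) for Ssbp4, and none of these genes overlapped between the groups.

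Pls3 (ENSMUSG00000016382, chromosome X, 75785654 to 75875182), which encodes the actin-bundling protein plastin 3, had 249.8, 99.9 and 237 CPM in Tbk1het, against 51.4, 62.5 and 56.6 CPM in Tak1het and 84.8, 95.9 and 84.8 CPM in WT. Replicate 2 of Tbk1het was at the level of WT and replicates 1 and 3 were well above it (log2 fold change 1.78, SE 0.24, adjusted p = 0.00342). Pls3 is X-linked; of 461 X-linked genes tested, 7 were called higher and 0 lower (1.52%, against 1.32% of all genes), and no Y-linked gene was called. All 7 genes were also called with DESeq2, with limma-voom, with a term for Y-linked RNA, with a term for the mitochondrial share, and after a correction on GC content and length. Only Esyt1 was called when the 6 libraries were fitted without the other 12, in a fit that called 3 genes, the others being the Y-linked genes Eif2s3y and Uty, and 0 genes passed a test against a log2 fold change of 1.

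Genes of mitosis were higher in Tbk1het as a group. Of 38 mitosis genes, all tested, 38 had a positive log2 fold change with a median of 1.58, against -0.00 over all genes; 3 were called higher (Spc25, Kif20b and Ect2), 0 were called lower, 32 had an unadjusted p under 0.05 (17.7% of all genes) and 11 had groups without overlap. The difference was not shared by all libraries. The mean over the 38 genes of log2(CPM + 1), relative to WT, was 1.25, -0.47 and 1.28 in Tbk1het replicates 1 to 3 and -1.16, -0.23 and -0.42 in Tak1het replicates 1 to 3, so Tbk1het replicate 2 lay inside the Tak1het range. The summed level of the list was 1472, 448 and 1508 CPM in Tbk1het, against 253, 519 and 453 CPM in Tak1het and 581, 710 and 518 CPM in WT. Without Tbk1het replicate 2 the median was 1.99, and without Tak1het replicate 1 it was 1.27. In these bulk samples more dividing cells and more of this RNA in each cell cannot be told apart.

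The called mitosis genes act at the kinetochore and in cytokinesis. Spc25, a subunit of the NDC80 complex that ties chromosomes to the spindle, had 48.9, 29.1 and 45.5 CPM in Tbk1het and 4.51, 11.4 and 18.7 CPM in Tak1het (log2 fold change 1.84, SE 0.40, adjusted p = 0.0380). Ect2, which acts in cytokinesis, had 34.96, 13.9 and 41.9 CPM in Tbk1het and 5.61, 9.84 and 10.8 CPM in Tak1het. Kif20b, a kinesin of late mitosis, had 24.6, 12.8 and 44.7 CPM in Tbk1het and 6.43, 9.32 and 10.4 CPM in Tak1het. In each of them the lowest Tbk1het library was replicate 2, and it still lay above the highest Tak1het library. All 3 lost the call without Tbk1het replicate 1 or 3, without Tak1het replicate 1 or 2, and with Y-linked RNA or the mitochondrial share as a term in the fit.

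Other called division genes with large rises lay outside that list. Ckap2, a spindle protein, had 16.8, 11.4 and 23.3 CPM in Tbk1het, against 2.28, 3.28 and 2.61 CPM in Tak1het and 4.62, 5.72 and 8.24 CPM in WT (log2 fold change 2.66, SE 0.36, adjusted p = 0.00342). Ncapd2, a subunit of condensin I, had 24.8, 18.3 and 54.3 CPM in Tbk1het and 4.51, 9.96 and 9.95 CPM in Tak1het (2.00, SE 0.40). All Tbk1het libraries were above all Tak1het libraries for both genes. Nuf2, the partner of Spc25 in the NDC80 complex, had 34.1, 15.6 and 22.6 CPM in Tbk1het and 3.92, 9.38 and 6.93 CPM in Tak1het. Oip5, needed to load the centromeric histone CENP-A, rose with a log2 fold change of 1.84 (SE 0.43). Some mitosis genes that are standard markers of dividing cells overlapped: Top2a, the topoisomerase of dividing cells, had 146, 31.2 and 143 CPM in Tbk1het and 8.89, 43.0 and 33.3 CPM in Tak1het (adjusted p = 0.0586).

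Genes of DNA replication gave no call: of 37 tested, 24 were positive with a median of 0.21, and 0 were called at an adjusted p under 0.05 (9 had an unadjusted p under 0.05). Of 22 histone genes tested, H1f0, a linker histone that is most abundant in resting cells, fell, with 56.6, 38.0 and 42.1 CPM in Tbk1het and 141, 100.5 and 74.0 CPM in Tak1het (log2 fold change -1.21, SE 0.20, adjusted p = 0.0140). Hist1h2bc, a core histone, rose (0.82, SE 0.19), with 172, 147 and 158 CPM in Tbk1het and 89.9, 84.1 and 95.2 CPM in Tak1het. E2f6, a repressor of the E2F family, fell as well, with 2.70, 2.74 and 2.65 CPM in Tbk1het and 8.80, 7.68 and 6.04 CPM in Tak1het.

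Many mitosis genes carry a short element near their start, the cell cycle genes homology region (CHR), to which a repressor complex binds in resting cells. Its letters TTTGAA, or TTCAAA on the other strand, were in the 250 bases before the RefSeq start (GRCm38.p6) of 11 of 33 mitosis genes with a sequence (33.3%) and of 10.6% of 9801 tested genes with one. The windows of Ckap2 and Ncapd2, which had the largest fold changes among the called division genes named here, are shown with the element in capitals. They are read 5′ to 3′ on the strand of the gene, and a match is only a description. The windows are chr8:22185820-22186069 on the minus strand for Ckap2 and chr6:125191587-125191836 on the minus strand for Ncapd2, with the element 101 and 123 bases before the start. Ect2 also had the element, 114 bases before the start, whereas Spc25, Kif20b, Nuf2 and Oip5 had no such letters in this window.
Ckap2: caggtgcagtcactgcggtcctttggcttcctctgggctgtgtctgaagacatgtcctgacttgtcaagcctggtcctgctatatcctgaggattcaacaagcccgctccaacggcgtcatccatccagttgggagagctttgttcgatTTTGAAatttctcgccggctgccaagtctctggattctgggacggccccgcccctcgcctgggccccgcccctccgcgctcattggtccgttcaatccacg
Ncapd2: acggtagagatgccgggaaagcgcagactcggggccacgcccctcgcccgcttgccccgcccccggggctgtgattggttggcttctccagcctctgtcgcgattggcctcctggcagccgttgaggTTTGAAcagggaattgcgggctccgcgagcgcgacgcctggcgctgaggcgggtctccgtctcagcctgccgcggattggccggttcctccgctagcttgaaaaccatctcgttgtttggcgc

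**Figure D2:**
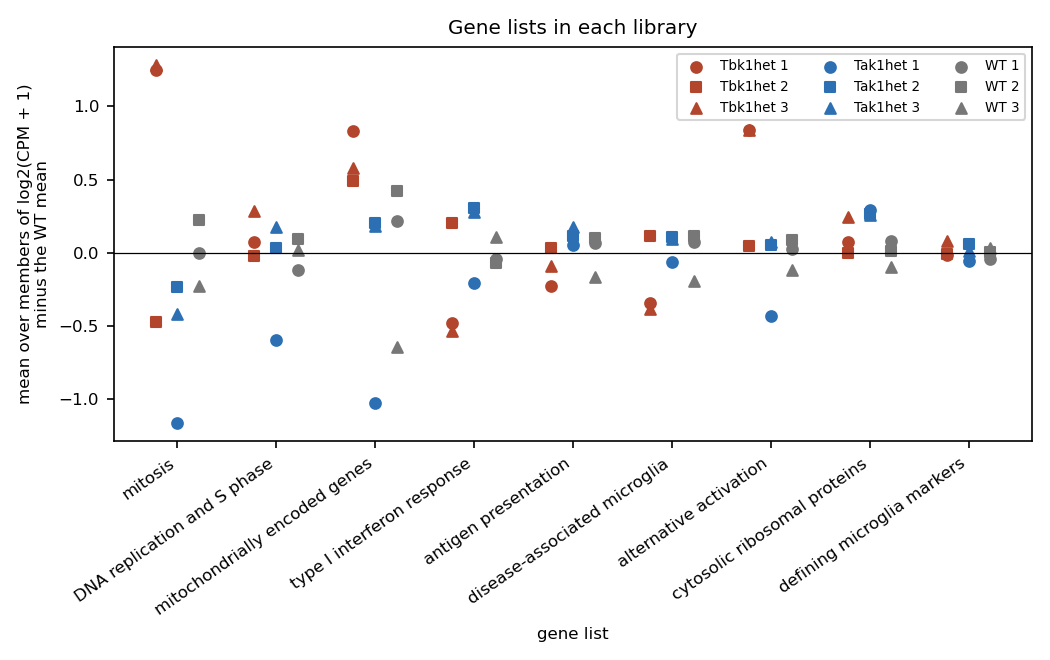
For 9 gene lists, each point is 1 library and the y axis is the mean over the members of log2(CPM + 1) minus the WT mean, with Tbk1het (red), Tak1het (blue) and WT (grey) from left to right. For mitosis Tbk1het replicates 1 and 3 stand at 1.25 and 1.28 and replicate 2 at -0.47, whereas the defining microglia markers stay within 0.08 of the WT mean in Tbk1het.

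Interferon-stimulated genes, the antiviral genes that type I interferon induces, were lower in Tbk1het for most members, and few of them were called. Of 49 tested, 40 were negative, the median was -0.30, 3 were called lower and 0 higher (background 0.632% and 0.692% of all genes), and 14 had an unadjusted p under 0.05. Isg15 (ENSMUSG00000035692, chromosome 4, 156199424 to 156200818), which encodes a ubiquitin-like modifier, had 1.88, 2.63 and 3.12 CPM in Tbk1het, against 6.15, 5.63 and 6.31 CPM in Tak1het and 6.01, 4.12 and 5.45 CPM in WT. Tak1het and WT overlapped and Tbk1het lay below both (log2 fold change, Tbk1het over Tak1het, -1.25, SE 0.25, adjusted p = 0.0241). Sp110, a nuclear body protein, had 9.07, 11.9 and 6.96 CPM in Tbk1het and 21.1, 18.5 and 16.2 CPM in Tak1het. Slfn5, a schlafen family member, had 8.92, 16.3 and 7.23 CPM in Tbk1het and 28.8, 23.3 and 22.1 CPM in Tak1het. Their log2 fold changes were -0.99 (SE 0.21) and -1.19 (SE 0.26). All 3 lost the call without Tbk1het replicate 1 or 3, without Tak1het replicate 1 or 2, and with the mitochondrial share as a term.

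The groups did not overlap for 6 of the 49 genes, the 3 that fell and Irf9, Lgals3bp and Trim25, against 17.9% of all genes tested. Of these, Trim25 was higher in Tbk1het, and neither Irf9, Lgals3bp nor Trim25 was called; Lgals3bp and Trim25 were named after their values were seen. Rsad2, an antiviral enzyme, had 8.34, 17.5 and 8.56 CPM in Tbk1het and 13.3, 32.9 and 34.9 CPM in Tak1het (log2 fold change -1.23, SE 0.39, adjusted p = 0.105). The chemokine gene Cxcl10 had 1.35, 2.06 and 1.06 CPM in Tbk1het and 1.37, 4.86 and 7.14 CPM in Tak1het (adjusted p = 0.0759). In both genes the low library of Tak1het was replicate 1. Relative to WT, the mean of log2(CPM + 1) over the list was -0.48, 0.20 and -0.53 in Tbk1het replicates 1 to 3 and -0.20, 0.31 and 0.28 in Tak1het replicates 1 to 3, so these groups overlapped. Without Tbk1het replicate 2 the list median was -0.52, and without Tbk1het replicate 3 it was -0.17.

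The interferon-stimulated response element, which the factors activated by interferon bind, holds 2 repeats of GAAA. Its core, searched as GAAA, any 2 bases and GAAA again (TTTC, any 2 bases and TTTC on the other strand), was in the 250 bases before the start of 15 of 37 interferon list genes with a sequence (40.5%), against 2.88% of 9801 tested genes. The windows of Isg15 (chr4:156200819-156201068, minus strand) and Slfn5 (chr11:82951852-82952101, plus strand), both called lower, are given from RefSeq GRCm38.p6 with the core in capitals, 5′ to 3′ on the strand of the gene. Isg15 has 3 cores that overlap each other, and Slfn5 has 1. Sp110 has none in this window.
Isg15: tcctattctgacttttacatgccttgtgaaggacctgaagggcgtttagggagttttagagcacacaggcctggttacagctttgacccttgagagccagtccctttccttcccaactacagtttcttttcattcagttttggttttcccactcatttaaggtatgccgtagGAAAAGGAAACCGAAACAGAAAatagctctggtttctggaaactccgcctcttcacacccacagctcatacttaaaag
Slfn5: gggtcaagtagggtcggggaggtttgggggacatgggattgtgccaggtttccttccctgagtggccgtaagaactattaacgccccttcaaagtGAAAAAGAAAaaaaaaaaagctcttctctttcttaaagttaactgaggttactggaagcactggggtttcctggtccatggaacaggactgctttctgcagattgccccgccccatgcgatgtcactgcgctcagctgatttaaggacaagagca

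Of 27 genes of antigen presentation tested, 20 were negative and 7 positive, with a median of -0.35. Of the 27, 3 fell (Nlrc5, H2-M3 and Tap1) and 1 rose (Cd86), against 0.632% and 0.692% of all genes. An unadjusted p under 0.05 was found for 13 (17.7% of all genes), and 9 had groups without overlap (17.9% of all genes). Nlrc5, which activates transcription of the MHC class I genes, had 5.74, 4.57 and 4.71 CPM in Tbk1het, against 15.4, 11.0 and 13.8 CPM in Tak1het and 8.10, 16.3 and 8.64 CPM in WT (log2 fold change -1.42, SE 0.27, adjusted p = 0.0204). H2-M3, a nonclassical class I molecule, had 21.2, 29.005 and 16.6 CPM in Tbk1het and 48.4, 43.5 and 45.4 CPM in Tak1het. Tap1, a subunit of the peptide transporter that loads class I molecules, had 21.5, 34.2 and 28.5 CPM in Tbk1het and 50.8, 46.0 and 45.5 CPM in Tak1het. None of these 3 genes overlapped between the groups. The class I gene H2-D1 had 1023, 1914 and 1029 CPM in Tbk1het and 2093, 2195 and 2187 CPM in Tak1het, and was not called (adjusted p = 0.0759). Cd86, a ligand that costimulates T cells, had 207, 75.6 and 180.0 CPM in Tbk1het, against 38.4, 60.8 and 54.8 CPM in Tak1het and 70.8, 60.3 and 59.0 CPM in WT (1.59, SE 0.26, adjusted p = 0.0110). These 4 lost the call without Tbk1het replicate 3, without Tak1het replicate 1, and with the mitochondrial share as a term.

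Among the components of the TNF, RIPK1, TBK1 and TAK1 pathways, 1 of 40 genes was called. Tbkbp1, which encodes an adaptor that binds TBK1, fell, with 4.87, 1.94 and 3.05 CPM in Tbk1het, against 11.5, 8.67 and 11.9 CPM in Tak1het and 5.00, 6.42 and 5.34 CPM in WT (log2 fold change -1.69, SE 0.36, adjusted p = 0.0314). Here WT lay nearer to Tbk1het. Chuk, the gene of the kinase IKKα, had 13.4, 14.3 and 11.1 CPM in Tbk1het and 44.2, 33.5 and 19.6 CPM in Tak1het and was not called (adjusted p = 0.0586). Ikbkg, the gene of the IKK scaffold NEMO, had 111, 90.4 and 106 CPM in Tbk1het and 79.5, 70.3 and 65.7 CPM in Tak1het (adjusted p = 0.0803). Both separated the groups without passing the test. None of 30 targets and feedback genes of NF-kB was called (6 at an unadjusted p under 0.05, against 17.7% of all genes); Sod2, a mitochondrial superoxide dismutase, had 160.5, 120.2 and 219.9 CPM in Tbk1het and 95.9, 108 and 97.2 CPM in Tak1het.

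Several inducible genes of macrophages were among the largest rises, and they were highest in Tbk1het replicates 1 and 3. Il1rn, the interleukin 1 receptor antagonist and the 1 call among 27 cytokine and chemokine genes, had 153, 32.3 and 209.9 CPM in Tbk1het, against 20.7, 16.6 and 19.2 CPM in Tak1het and 31.6, 38.9 and 16.3 CPM in WT (log2 fold change 2.81, SE 0.57, adjusted p = 0.0283). Thbs1, a secreted thrombospondin, had 1104, 107 and 1554 CPM in Tbk1het and 109, 78.5 and 86.3 CPM in Tak1het (3.33, SE 0.58, adjusted p = 0.0171). Tgm2, a transglutaminase induced in alternatively activated macrophages, had 109.8, 17.2 and 254 CPM in Tbk1het and 19.1, 15.5 and 15.2 CPM in Tak1het (2.93, SE 0.56, adjusted p = 0.0204). For Thbs1 and Tgm2, Tbk1het replicate 2 lay within the Tak1het range, and replicates 1 and 3 were well above it. All 3 calls were lost without Tbk1het replicate 3 and without Tak1het replicate 1 or 2. Arg1, arginase 1, followed the same libraries, with 187, 21.7 and 154 CPM in Tbk1het and 15.7, 45.7 and 44.8 CPM in Tak1het, and was not called (adjusted p = 0.0957). Of 16 genes of alternative activation tested, 12 were positive, with a median of 0.80, and 2 were called higher (Tgm2 and Il1rn).

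Cd14, a co-receptor for lipopolysaccharide and the 1 call among 30 complement and phagocytic receptor genes, had 4149, 1568 and 5716 CPM in Tbk1het and 1391, 1792 and 1882 CPM in Tak1het (log2 fold change 1.17, SE 0.28, adjusted p = 0.0483), with replicate 2 inside the Tak1het range. Csf2rb, the shared receptor chain for GM-CSF, interleukin 3 and interleukin 5, rose (0.98, SE 0.21). Csf2rb2, a receptor chain for interleukin 3 alone, rose as well (0.72, SE 0.16). Csf2rb and Csf2rb2 are near-identical copies whose reads could be split between them. Il10rb, a receptor chain for interleukin 10, fell (-0.58, SE 0.13), with 137, 168 and 109 CPM in Tbk1het and 213, 207 and 197 CPM in Tak1het. These were the 3 calls among 31 cytokine and growth factor receptor genes. Procr, the protein C receptor, had 31.3, 7.77 and 34.4 CPM in Tbk1het and 4.74, 7.38 and 5.69 CPM in Tak1het, and Gpr35, a G protein-coupled receptor, had 17.8, 3.20 and 12.9 CPM in Tbk1het and 1.00, 2.58 and 1.24 CPM in Tak1het. Jam2, a junctional adhesion molecule, had 7.96, 12.7 and 29.9 CPM in Tbk1het and 4.88, 2.40 and 2.61 CPM in Tak1het, with its lowest Tbk1het library in replicate 1.

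Some markers of border macrophages and monocytes were high in the same libraries and others were not. Of 15 such markers tested, 9 were positive and 6 negative, 0 were called with edgeR and 6 had an unadjusted p under 0.05. Lyve1, a hyaluronan receptor of perivascular and meningeal macrophages, had 98.2, 0.571 and 156 CPM in Tbk1het, against 3.01, 6.04 and 5.35 CPM in Tak1het and 4.75, 8.78 and 0.522 CPM in WT. F13a1, a coagulation factor gene of those cells, had 472, 81.5 and 458 CPM in Tbk1het and 48.5, 114 and 128 CPM in Tak1het. Ms4a7, another marker of the list, was highest in Tbk1het replicate 2, with 354, 889 and 250.5 CPM in Tbk1het and 474, 582 and 562 CPM in Tak1het. Clec12a also peaked there among the Tbk1het libraries, with 189.7, 527 and 144 CPM in Tbk1het and 270.2, 428 and 432 CPM in Tak1het. Both Ms4a7 and Clec12a were chosen after their values were seen. The summed level of the list was 4076, 3313 and 4665 CPM in Tbk1het, against 2966, 3825 and 3857 CPM in Tak1het and 3325, 3436 and 2947 CPM in WT. Its part in the rises of Il1rn, Thbs1, Tgm2 and Cd14 was not tested.

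**Figure D3:**
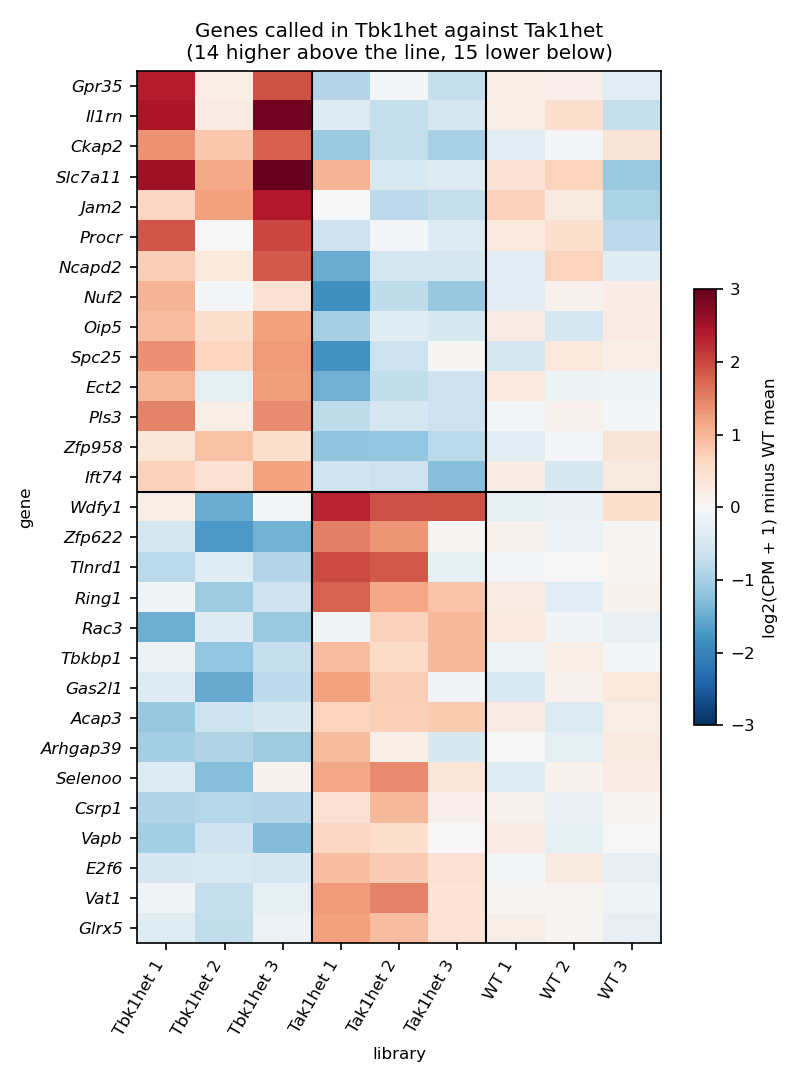
Rows are genes named for the size of their rise (14 genes) or fall (15 genes), columns are libraries of Tbk1het, Tak1het and WT from left to right, and colour is log2(CPM + 1) minus the WT mean. Tbk1het replicate 2 is paler than replicates 1 and 3 for Gpr35 (3.20, against 17.8 and 12.9 CPM), Il1rn and Procr, and Tak1het replicate 3 is paler than replicates 1 and 2 for Zfp622 and Tlnrd1.

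The genes that fell most were led by Wdfy1, an adaptor that brings TRIF to Toll-like receptors 3 and 4. Wdfy1 (ENSMUSG00000073643, chromosome 1, 79702262 to 79776143) had 6.32, 1.31 and 5.31 CPM in Tbk1het, against 30.6, 23.97 and 23.5 CPM in Tak1het and 4.31, 4.60 and 8.24 CPM in WT. Tbk1het overlapped WT and Tak1het stood above both, with a log2 fold change of -2.59 (SE 0.55, adjusted p = 0.0333) between the heterozygotes. Tak1het replicates 1 and 2 set 2 other large differences: Zfp622, a factor of ribosome assembly, had 9.69, 3.65 and 4.78 CPM in Tbk1het and 42.7, 37.7 and 14.8 CPM in Tak1het, and Tlnrd1, which binds actin, had 4.82, 6.91 and 4.51 CPM in Tbk1het and 38.5, 35.1 and 7.34 CPM in Tak1het. WT had 15.8, 12.7 and 14.8 CPM of Zfp622 and 8.86, 9.07 and 9.57 CPM of Tlnrd1. Ring1, a ubiquitin ligase of Polycomb repressive complex 1, had 3.13, 1.08 and 1.86 CPM in Tbk1het and 14.1, 8.79 and 7.00 CPM in Tak1het.

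Among the 15 named falls were genes of the cytoskeleton and its GTPases. Gas2l1, which links actin to microtubules, had 10.6, 4.28 and 7.76 CPM in Tbk1het and 33.7, 24.3 and 13.2 CPM in Tak1het. Csrp1, a LIM domain protein of actin filaments, had 8.29, 8.56 and 8.49 CPM in Tbk1het and 22.8, 32.9 and 18.3 CPM in Tak1het. Rac3, a small GTPase, had 1.35, 3.997 and 1.99 CPM in Tbk1het and 5.11, 9.55 and 11.7 CPM in Tak1het. The libraries of the groups were apart in each. Acap3 and Arhgap39, activators of GTP hydrolysis by small GTPases, fell by 1.62 (SE 0.39) and 1.60 (SE 0.38) on the log2 scale. Fblim1, a filamin-binding protein of cell adhesions, fell too (-0.93, SE 0.19) and was among the 5 genes with the smallest adjusted p when Y-linked RNA was a term, with Cytip, Snap23 and Bclaf1, which rose, and Esyt1.

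Of the remaining large falls, 3 concern membranes and mitochondria. Vapb, a protein of contacts between the endoplasmic reticulum and other membranes, had 6.12, 8.39 and 4.84 CPM in Tbk1het and 21.2, 19.6 and 13.4 CPM in Tak1het. Glrx5, which takes part in iron-sulphur cluster assembly in mitochondria, had 7.33, 5.42 and 8.62 CPM in Tbk1het and 24.5, 19.6 and 13.4 CPM in Tak1het. Selenoo, a mitochondrial selenoprotein, had 8.01, 3.88 and 11.7 CPM in Tbk1het and 25.6, 30.5 and 14.1 CPM in Tak1het. The most abundant of the 15 was Vat1, a vesicle membrane protein, with 183, 119 and 158 CPM in Tbk1het, against 474, 546 and 256 CPM in Tak1het and 198, 207 and 178 CPM in WT (log2 fold change -1.47, SE 0.26, adjusted p = 0.0184). WT lay near Tbk1het for Vat1.

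Of all genes tested, 0.692% were called higher, and 3 lists of stress and survival genes held 2 such calls each. Of 30 genes of the integrated and endoplasmic reticulum stress response, 2 rose: Dnajb9, a chaperone partner of the endoplasmic reticulum, had 126, 113 and 107 CPM in Tbk1het and 42.3, 52.6 and 65.5 CPM in Tak1het (log2 fold change 1.11, SE 0.21, adjusted p = 0.0204), and Slc7a11, the cystine importer, had 33.4, 11.9 and 54.2 CPM in Tbk1het and 10.9, 3.28 and 3.50 CPM in Tak1het (2.47, SE 0.59, adjusted p = 0.0483). The list median was -0.04. Of 25 antioxidant genes, Slc7a11 and Nfe2l2, which encodes the antioxidant regulator NRF2, rose; Nfe2l2 had 505, 479 and 452 CPM in Tbk1het and 358, 342 and 352 CPM in Tak1het, a small change (0.45, SE 0.11) with no overlap. Of 28 genes of intrinsic apoptosis and p53 targets, 2 rose. Pmaip1, which encodes the pro-apoptotic protein NOXA, had 73.2, 56.0 and 36.9 CPM in Tbk1het and 24.4, 20.98 and 22.7 CPM in Tak1het, and Trp53inp1, a p53 target, had 108, 65.4 and 80.5 CPM in Tbk1het and 28.5, 41.4 and 48.3 CPM in Tak1het. The other 26 were not called, and the list median was -0.17.

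Homeostatic and disease-associated microglia genes gave no call with edgeR. At an unadjusted p under 0.05, 5 of 10 homeostatic and 12 of 15 disease-associated genes were lower in Tbk1het, and 17.7% of all genes tested passed that p in either direction. Of 31 disease-associated genes, 22 were negative with a median of -0.23, and the groups did not overlap for 12, against 17.9% of all genes. Relative to WT, the mean of log2(CPM + 1) over these genes was -0.34, 0.12 and -0.38 in Tbk1het replicates 1 to 3. It was -0.06, 0.11 and 0.10 in Tak1het replicates 1 to 3, so only Tbk1het replicates 1 and 3 lay below Tak1het. Trem2, a lipid receptor of microglia, had 785, 1393 and 741 CPM in Tbk1het and 1429, 1397 and 1413 CPM in Tak1het (adjusted p = 0.114), with Tbk1het replicate 2 close to Tak1het. Cst7, a cysteine protease inhibitor, went the other way, with 24.3, 20.3 and 33.6 CPM in Tbk1het and 13.9, 9.43 and 10.7 CPM in Tak1het (adjusted p = 0.0525). Lyz2, the lysozyme gene of myeloid cells, had 26535, 39479 and 21913 CPM in Tbk1het, against 13578, 20666 and 20629 CPM in Tak1het and 39358, 35037 and 37051 CPM in WT. Every Tbk1het library was above every Tak1het library for Lyz2, and the log2 fold change of 0.68 (SE 0.20) was not called (adjusted p = 0.0810). Of 32 homeostatic genes, 21 were negative with a median of -0.05; the receptor gene Gpr34 had 257, 169.8 and 134 CPM in Tbk1het and 82.6, 88.4 and 102 CPM in Tak1het (adjusted p = 0.0505).

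In the lysosome and autophagy list of 34 genes, 2 fell with small changes and a list median of -0.10. Lamp1, a membrane protein of lysosomes, had 2675, 1706 and 2231 CPM in Tbk1het and 3135, 3366 and 3143 CPM in Tak1het, and Psap, the precursor of the saposins, had 2139, 3217 and 2120.1 CPM in Tbk1het and 4117, 3935 and 3803 CPM in Tak1het. Both were apart in all libraries. Of 13 mitochondrially encoded genes, 13 were positive with a median of 0.92 and 0 were called with edgeR, and 0 had an unadjusted p under 0.05. Their summed level was 22919, 20085 and 20525 CPM in Tbk1het, against 4171, 15065 and 16280 CPM in Tak1het and 15363, 17278 and 6335 CPM in WT. The list median turned to -0.52 when Y-linked RNA was added to the fit. Adding the mitochondrial share gave -0.28, but that share is the summed counts of these same genes. The value of -0.28 thus follows from adjusting the genes for their own sum, and no conclusion is drawn from it. The 32 nuclear-encoded genes of the same machinery had a median of -0.02. Of 40 cytosolic ribosomal protein genes, 37 were negative by small amounts, with a median of -0.17 and 0 called, and 10 had an unadjusted p under 0.05, against 17.7% of all genes.

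No member was called with edgeR in 4 further lists: cholesterol biosynthesis (24 tested, median 0.34, 7 at an unadjusted p under 0.05), cholesterol efflux and lipid handling (23, median -0.24, 8), glycolysis and hypoxia response (31, median 0.08, 5), and immediate early and heat shock genes (24, median -0.07, 5), against 17.7% of all genes at that p. DESeq2 called 101 list members in all, against 29 with edgeR.

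Of 33 matrix genes tested, Thbs1 and Lox rose, and the list median of 0.58 turned to -0.25 with a filter at a mean of 5 CPM. Lox, an enzyme that crosslinks collagen, had 3.47, 4.34 and 3.18 CPM in Tbk1het, against 0.273, 0.352 and 0.274 CPM in Tak1het and 9.37, 4.77 and 2.44 CPM in WT, so that Tak1het alone was low (log2 fold change 3.58, SE 0.55, adjusted p = 0.00743). Of 11 astrocyte markers tested, Gfap, the astrocyte filament protein, was called higher, with 1.35, 0.685 and 1.13 CPM in Tbk1het, against 0, 0 and 0.0686 CPM in Tak1het and 2.53, 0.589 and 0.928 CPM in WT. Summed astrocyte markers, most of which came from Glul, which microglia also express, were at 222, 275 and 239 CPM in Tbk1het and 167, 226 and 249 CPM in Tak1het. Fibroblast, mural and endothelial markers summed to 18.8, 20.8 and 40.0 CPM in Tbk1het, against 25.6, 22.1 and 16.5 CPM in Tak1het and 74.8, 33.8 and 18.7 CPM in WT. Of 10 tested, 7 were positive and 3 negative, and 0 were called. The sum hides differences between members. Col3a1, Col1a2 and Dcn had means of 3.67, 2.03 and 1.89 CPM in Tbk1het and 0.457, 0.356 and 0.298 CPM in Tak1het. Flt1, the most abundant, had means of 8.35 CPM in Tbk1het and 11.6 CPM in Tak1het. No marker of the oligodendrocyte lineage (11 tested), of neurons (9) or of other blood cells (2) was called, with 3, 1 and 0 at an unadjusted p under 0.05. The part of other cells in the calls of Lox and Gfap was not tested.

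Called genes also differed in base composition. The median GC content of the longest transcript was 42.1% for genes that rose, 52.99% for genes that fell and 49.2% for all genes tested. Across quartiles of GC content from low to high, the median log2 fold change was 0.27, 0.04, -0.09 and -0.18, with 63, 16, 10 and 4 genes called higher and 5, 13, 29 and 38 called lower. A correction of each library on GC content and length was chosen after seeing the data. It brought the 4 medians to 0.02, 0.02, 0.01 and 0.02, which follows from removing a fitted trend on GC content from each library. It left 58 calls, of which 44 were among the 178. Ckap2, Pls3, Cd86, Thbs1, Tgm2, Ncapd2, Gpr35, Dnajb9, Esyt1, Wdfy1, Isg15, Sp110, Slfn5, Nlrc5, H2-M3 and H1f0 were called after it; Il1rn, Spc25, Ect2, Kif20b, Slc7a11, Cd14, Tap1 and Tbkbp1 were not. Zinc-finger genes with Zfp names, a group chosen after its values were seen, had a median GC content of 43.9% and showed the same shift: 216 of 339 were positive with a median of 0.29, and 5 were called higher (1.47%), led by Zfp958, which had 31.8, 45.6 and 35.7 CPM in Tbk1het and 10.2, 10.4 and 13.7 CPM in Tak1het. After the correction their median was 0.15 and 0 were called higher.

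**Figure D4:**
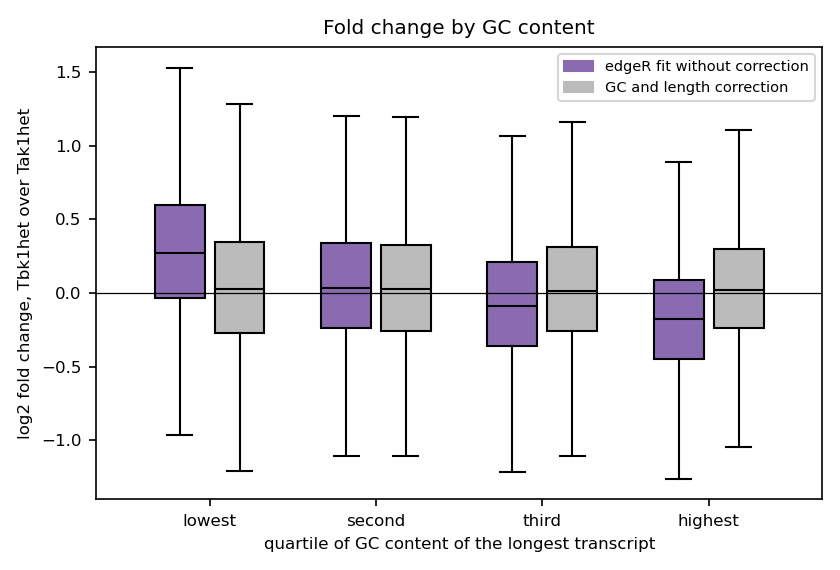
Boxes show the log2 fold change, Tbk1het over Tak1het, of genes in 4 quartiles of GC content, before (purple) and after (grey) correcting for GC content and for length, with the median as a line, the quartiles as the box and whiskers to 1.5 times the box height. The medians step down from 0.27 to -0.18 before the correction. They lie between 0.01 and 0.02 after it, which the correction itself largely sets.

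With Y-linked RNA as a term in the fit, 319 genes were called, of which 36 were among the 93 higher and 22 among the 85 lower genes. With the mitochondrial share as a term, 50 were called, of which 10 and 9 were among them. Esyt1 lies within 10 Mb of Tbk1 on chromosome 10, and within 10 Mb of Map3k7 0 of 61 tested genes were called. The plot of calls under each setting gives these counts side by side.

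**Figure D5:**
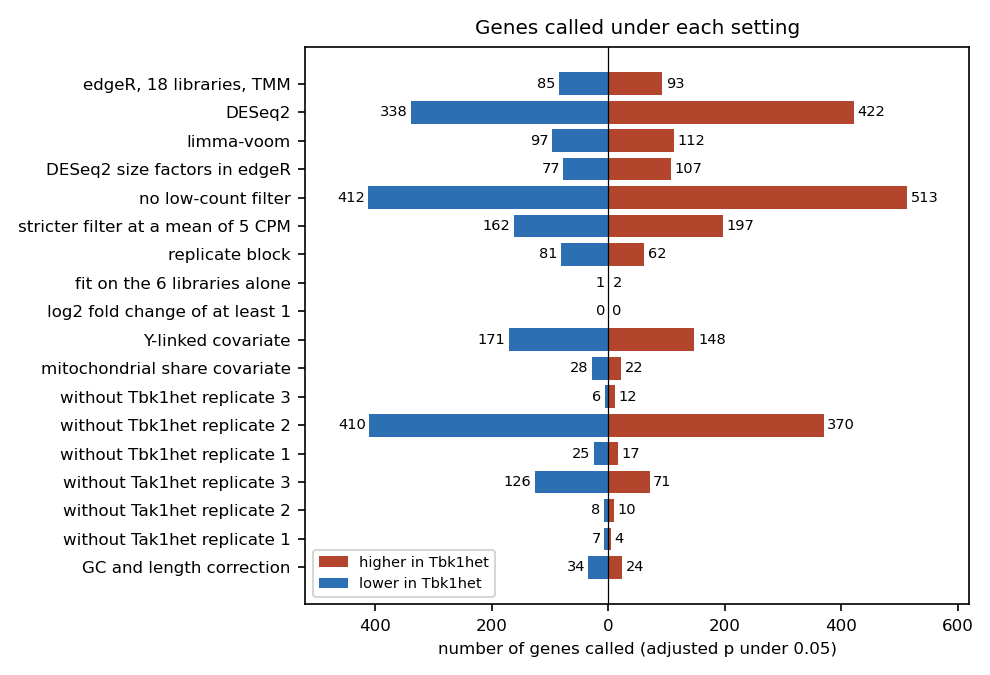
Bars give the number of genes called at an adjusted p under 0.05 in each setting, to the right for genes higher in Tbk1het and to the left for genes lower. The edgeR fit of all 18 libraries called 93 and 85, DESeq2 called 422 and 338, and leaving out 1 library gave from 4 and 7 (without Tak1het replicate 1) to 370 and 410 (without Tbk1het replicate 2).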

How the data were processed

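RNA from cultured microglia was sequenced as oligo(dT)-primed Smart-seq2 libraries, a chemistry that does not mark strand, so a gene and an overlapping antisense gene share reads. The deposited table holds raw counts of reads per gene; per the submitters' processing notes the authors used STAR, featureCounts and mm10, whereas the labels' extract protocol names RSEM, and versions, annotation and strand setting are not given in the sources used here. Of 50686 identifiers, 50376 matched a GENCODE M21 (GRCm38) symbol, and the other 310 held at most 0.00437% of the counts of a library.

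Of the genes, 13447 passed edgeR's filterByExpr with the 6 genotypes as groups, and all 18 libraries were fitted in 1 edgeR 4.0.16 quasi-likelihood model with a term for each genotype (R 4.3.3, 12 residual degrees of freedom). Libraries were scaled by TMM, and CPM values refer to the scaled total. P-values were adjusted by Benjamini-Hochberg over all tested genes, and genes under 0.05 were called; rose and fell refer to called genes. Adjusted p-values are from this test unless another tool is named. Fold changes are Tbk1het over Tak1het. The fit was first tested on simulated counts with known changes in genes with a mean of 5 CPM or more. It called 70 of 100 genes changed by 1 on the log2 scale, 99 of 100 changed by 2, and 7 unchanged genes. The simulated libraries held no outlying library, sex difference or GC trend, so how these affect the calls was not tested there.

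Named genes were Tbk1, Map3k7 and Ripk1, the 15 called genes in each direction with the largest fold changes with a mean of 5 CPM or more and groups apart, up to 6 members of each of 33 gene lists, and 5 genes by the fit with Y-linked RNA; 1 of the 15 higher genes and some other results are not reported here. The comparison, its members and the lists were chosen with earlier results of these data known. Lists are described by counts and medians beside all genes, without a set test. Promoter windows are from RefSeq, 250 bases before a start. Alternatives were DESeq2 1.42.0, limma-voom (limma 3.58.1), DESeq2 size factors in edgeR, other low-count filters, a replicate block, the 6 libraries alone, a test against a log2 fold change of 1, covariates for Y-linked RNA and the mitochondrial share, each library left out, and a GC and length correction added after the data were seen. The cDNA was amplified and carries no molecular identifiers, so that intervals and floors (3 counts) hold counting error only.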

Additional observations from a re-analysis of the deposited data

How the results depend on the processing

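The number of genes called in Tbk1het against Tak1het, 178 in the edgeR fit of 18 libraries, was 760 with DESeq2, 925 without a low-count filter, 359 with a filter at a mean of 5 CPM, 319 with Y-linked RNA as a term, 50 with the mitochondrial share as a term, 58 after the GC and length correction, 3 in a fit of the 6 libraries alone and 0 against a log2 fold change of 1; it ranged from 11 to 780 with 1 library left out. The members of gene lists called, 29 in that fit, were 101, 162, 55, 55, 6, 16, 2 and 0 under the same settings in the same order, and 2 to 152 with 1 library left out. Counts with limma-voom (209) and with DESeq2 size factors (184) were close to it. The drop with 6 libraries goes with fewer residual degrees of freedom, and the causes of the other shifts were not tested. Tbk1, at -0.91 and not called, was called with DESeq2 (-0.89, adjusted p = 0.0130), without a filter (-0.91) and with the stricter filter (-0.90, adjusted p = 0.0486), and without Tbk1het replicate 2 (adjusted p = 0.0468), and ranged from -1.03 to -0.74 with 1 library left out. Ripk1 was called without a filter (-0.85) and in no other setting, and ranged from -1.19 to -0.50, and Map3k7 was called in none and ranged from 0.51 to 0.71. Kdm5d, which is 1 of the genes that make up the Y-linked term, turned to -7.07 when that term was added. No called gene changed sign. Replicate numbers did not pair the libraries: deviations from the group means of libraries with the same number correlated at -0.0404, -0.0152 and -0.0250, and the fit with the replicate number as a block called 143 genes. Genes at a few CPM, such as Isg15, Gfap and Lox, rest on few reads per library.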
